A study of Homo sapiens with 24 samples.

Results

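YY1 was depleted with a short hairpin RNA in HK-2 cells, an immortalised line of human proximal tubule epithelium, and the transcripts of these cells were compared with those of cells that carried a control hairpin. The comparison rests on 3 shNC (control) and 3 shYY1 libraries, chosen by the cell line and genotype in their labels, which are 6 of the 24 RNA-seq libraries of the series. The series crossed knockdown of YY1 with knockdown of KDM5C, a demethylase of histone H3 lysine 4, in HK-2 cells and in ACHN renal cancer cells. Beside the HK-2 pair, the shNC and shYY1 libraries of ACHN cells and the shKDM5C and Dsh (double-knockdown) libraries of HK-2 cells are used here for comparison, with 3 libraries in each group. All cells carried hairpins in the lentiviral pLKO.1 vector, were selected with puromycin, and were grown in DMEM with 10% fetal bovine serum. The Dsh cells were made by adding a GFP-marked KDM5C hairpin to cells already depleted of YY1. The sources used here do not name the YY1 hairpin of the sequenced cells, so an effect of that hairpin on other transcripts and an effect of YY1 loss cannot be told apart. They also do not say whether replicates were separate cultures, so the p-values measure only the spread between these libraries, which may be technical.

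YY1 is a zinc finger transcription factor that binds a short motif with an ATGG core, often close to transcription start sites. It activates some genes and represses others according to its partners, which include the INO80 chromatin remodelling complex, Polycomb proteins and histone deacetylases, and it can bridge enhancers and promoters. Promoters of many ribosomal and mitochondrial genes carry its motif. Proximal tubule cells reabsorb most of the filtered load, run on mitochondrial oxidation, and when injured lose transport functions and lay down matrix, and HK-2 cells are widely used to study these responses.

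The libraries held between 16395808 and 18755684 counts on genes, and 16071 genes passed the filter on low counts. Values are CPM, the counts per 1000000 counts of the library with library sizes scaled by the trimmed mean of M values, and fold changes are log2 of shYY1 over shNC. Calls rest on the quasi-likelihood test of edgeR, with p-values adjusted by Benjamini-Hochberg and a threshold of 0.05. The first principal component held 47.3% of the variance and separated the groups, while on the second (15.2%) shYY1 replicate 2 lay at -30.8 and shYY1 replicates 1 and 3 at 20.2 and 9. Mitochondrial transcripts took 5.14 to 5.519% of the counts in shNC and 4.766 to 4.886% in shYY1 libraries. All 5 epithelial markers examined reached a mean of 1 CPM, though CDH1 (E-cadherin) lay near the floor. It was at 1.144, 2.075 and 0.9064 unscaled CPM in shNC and 0.595, 0.3659 and 1.042 in shYY1 libraries. The summed unscaled CPM of the 5 was 2570 to 2690 in shNC and 1650 to 1740 in shYY1 libraries. Most of that sum was KRT8 and KRT18, which fell, while KRT19 rose. Only 5 of 13 proximal tubule markers reached a mean of 1 CPM (SLC5A2, MME, GGT1 and PAX8 among them), SLC22A6 was at 0 in all 6 libraries, and the endocytic receptors LRP2 and CUBN and the water channel AQP1 were under 1 CPM, so most defining markers of the labelled cell type were absent or near 0. No endothelial marker reached 1 CPM (KDR at 0), of 5 distal nephron markers UMOD and AQP2 were at 0 and SLC12A3 alone reached a mean of 1 CPM (summed 1.79 to 2.75 CPM in shNC and 1.68 to 3.29 in shYY1 libraries), and the immune marker CD14 was the only one of 4 above 1 CPM. Of 7 fibroblast and mural markers, COL1A1 and LUM passed 1 CPM, and the list summed to 43.9 to 45.6 CPM in shNC and 56.7 to 62.8 in shYY1 libraries. The higher sum came from LUM, while COL1A1 was at 30.55, 32.2 and 33.6 unscaled CPM in shNC and 26.95, 25.1 and 26.9 in shYY1 libraries. In these bulk libraries, fewer cells of a kind and less RNA per cell cannot be told apart.

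The targeted transcript was reduced in every shYY1 library. YY1 (chr14:100238298-100282792 on GRCh38, plus strand) stood at 217, 219 and 206 CPM in the shNC libraries and 63.3, 69.5 and 64.4 CPM in the shYY1 libraries. The groups were far apart, with 30.7% of the control level left, a log2 fold change of -1.70 (SE 0.056, adjusted p = 2.21e-15). In the 12 HK-2 libraries scaled together, YY1 was at 239.8 ± 30.8 CPM in shKDM5C and 74.98 ± 1.55 CPM in Dsh cells (SD, n = 3). In ACHN cells the same comparison gave -0.88 (adjusted p = 1.65e-19), and the fall of YY1 was larger in HK-2 than in ACHN cells by -0.84 (adjusted p = 3.52e-11) on the log2 scale. YY2, the retrogene paralog of YY1, was at 5.59, 4.39 and 4.81 CPM in the shNC libraries and 5.47, 7.44 and 5.97 CPM in the shYY1 libraries, groups that overlapped, with a log2 fold change of 0.35 (adjusted p = 0.163).

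KDM5C, the other factor targeted in the series, rose when YY1 was depleted. It was at 196, 194 and 199 CPM in the shNC libraries and 265, 249 and 237 CPM in the shYY1 libraries, with no overlap and a log2 fold change of 0.35 (SE 0.051, adjusted p = 1.54e-05), and in ACHN cells it was 0.34 (adjusted p = 1.14e-08).

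Of the 16071 genes, 2366 (14.7%) were lower and 2305 (14.3%) higher in shYY1 cells, with a median log2 fold change of -0.42 among the lower and 0.33 among the higher genes and 0.0051 over all genes. With a change of 1.5 or more on the log2 scale in either direction required as well, the balance was uneven, with 157 genes lower (0.977% of those tested) and 51 higher (0.317%). The shNC and shYY1 values did not overlap for 2288 of the lower and 2159 of the higher genes, and for 6575 of all genes (40.9%). Most changes were shallow, and the steep ones were more often falls than rises. Counts of list members in shYY1 HK-2 cells are to be read against 14.7% lower and 14.3% higher, and several lay near those shares.

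**Figure D1:**
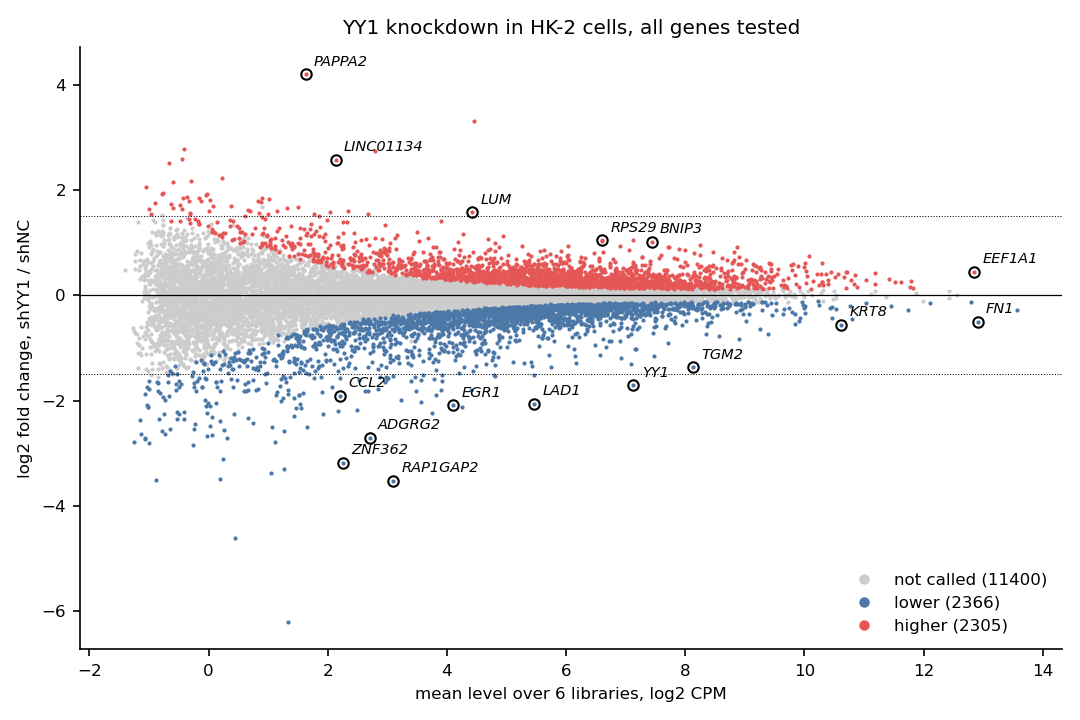
Log2 fold change of shYY1 over shNC HK-2 cells (vertical axis) against mean level in log2 CPM (horizontal axis), 1 point for each of the 16071 genes tested, with the 2366 lower and 2305 higher genes coloured and some named genes circled. Labelled among the falls are YY1 (-1.70), LAD1 (-2.06) and RAP1GAP2 (-3.52), among the rises PAPPA2 (4.20) and BNIP3 (1.02), and the dotted lines mark the fold threshold of 1.5.

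The steepest falls among genes of at least 5 CPM in shNC cells were of RAP1GAP2 and ZNF362. RAP1GAP2, which switches off the small GTPase RAP1, was at 13.0, 16.1 and 18.3 CPM in the shNC libraries and 1.40, 1.34 and 1.36 CPM in the shYY1 libraries, a log2 fold change of -3.52 (SE 0.19, adjusted p = 7.83e-12). ZNF362, a zinc finger protein gene, was at 7.85, 8.61 and 9.40 CPM in the shNC libraries and 1.40, 0.793 and 0.651 CPM in the shYY1 libraries, or -3.18 (SE 0.25, adjusted p = 2.07e-09). HR, the nuclear corepressor hairless, was at 24.6, 20.5 and 21.8 CPM in the shNC libraries and 5.84, 4.51 and 3.90 CPM in the shYY1 libraries, or -2.23 (adjusted p = 1.14e-10). These genes were chosen among those whose shNC and shYY1 values did not overlap, so their separation was set in advance. The fall of ZNF362 recurred in ACHN cells (-1.56) and on the KDM5C-depleted background without shKDM5C replicate 1 (-3.59, and -3.51 with all libraries). That of RAP1GAP2 recurred on the KDM5C-depleted background without shKDM5C replicate 1 (-2.31, and -2.24 with all libraries). RAP1GAP2 was higher in shYY1 ACHN cells (0.73).

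Other genes with steep falls had varied roles. LAD1 (ladinin, a protein of the epithelial basement membrane zone) was at 71.4, 74.5 and 68.5 CPM in the shNC libraries and 17.8, 15.6 and 17.9 CPM in the shYY1 libraries, or -2.06 (adjusted p = 2.19e-14). EGR1, an immediate early transcription factor of growth factor signalling, was at 28.7, 28.3 and 26.8 CPM in the shNC libraries and 5.54, 7.44 and 6.68 CPM in the shYY1 libraries, or -2.09 (adjusted p = 1.96e-11). DMKN, the secreted epithelial protein dermokine, was at 33.1, 29.5 and 30.9 CPM in the shNC libraries and 7.30, 6.65 and 7.51 CPM in the shYY1 libraries, or -2.12 (adjusted p = 6.04e-12). Absence of overlap was again a condition of the rule that named these genes. The same rule also named the adhesion receptor ADGRG2 (-2.70), placental alkaline phosphatase ALPP (-2.50), the receptor kinase GRK3 (-2.18) and the PDZ domain gene PDZD4 (-2.02).

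The steepest rise was of PAPPA2, a protease that releases insulin-like growth factors from their binding proteins. PAPPA2 was at 0.226, 0.285 and 0.423 CPM in the shNC libraries and 5.42, 5.12 and 7.10 CPM in the shYY1 libraries, a log2 fold change of 4.20 (SE 0.33, adjusted p = 2.93e-09), so a transcript near its detection limit in control cells was present in all 3 knockdown libraries. It also rose on the KDM5C-depleted background, from 0.4244, 0.3628 and 0.271 CPM in shKDM5C to 25.15, 27.19 and 27.56 CPM in Dsh libraries. The long noncoding RNA LINC01134 was at 0.508, 1.88 and 1.37 CPM in the shNC libraries and 7.30, 7.99 and 7.28 CPM in the shYY1 libraries, or 2.58 (adjusted p = 2.72e-07). It was also higher in ACHN cells (1.83) and, without shKDM5C replicate 1, on the KDM5C-depleted background (0.95). With all libraries it was not called on that background (1.24, adjusted p = 0.0648). LUM, the matrix proteoglycan lumican, was at 11.6, 11.7 and 9.09 CPM in the shNC libraries and 29.8, 30.8 and 36.2 CPM in the shYY1 libraries, or 1.58 (adjusted p = 8.58e-10). Absence of overlap was a condition of the choice of these genes as well. Only 6 of the 51 steep rises met the rule of at least 5 CPM, a symbol and no overlap. The others were CAB39L, a scaffold of the LKB1 kinase complex (1.59), the calcium pump regulator SLN (1.51) and the pseudogene RPS7P10 (1.58), whose reads cannot be told apart from those of RPS7 with certainty.

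**Figure D2:**
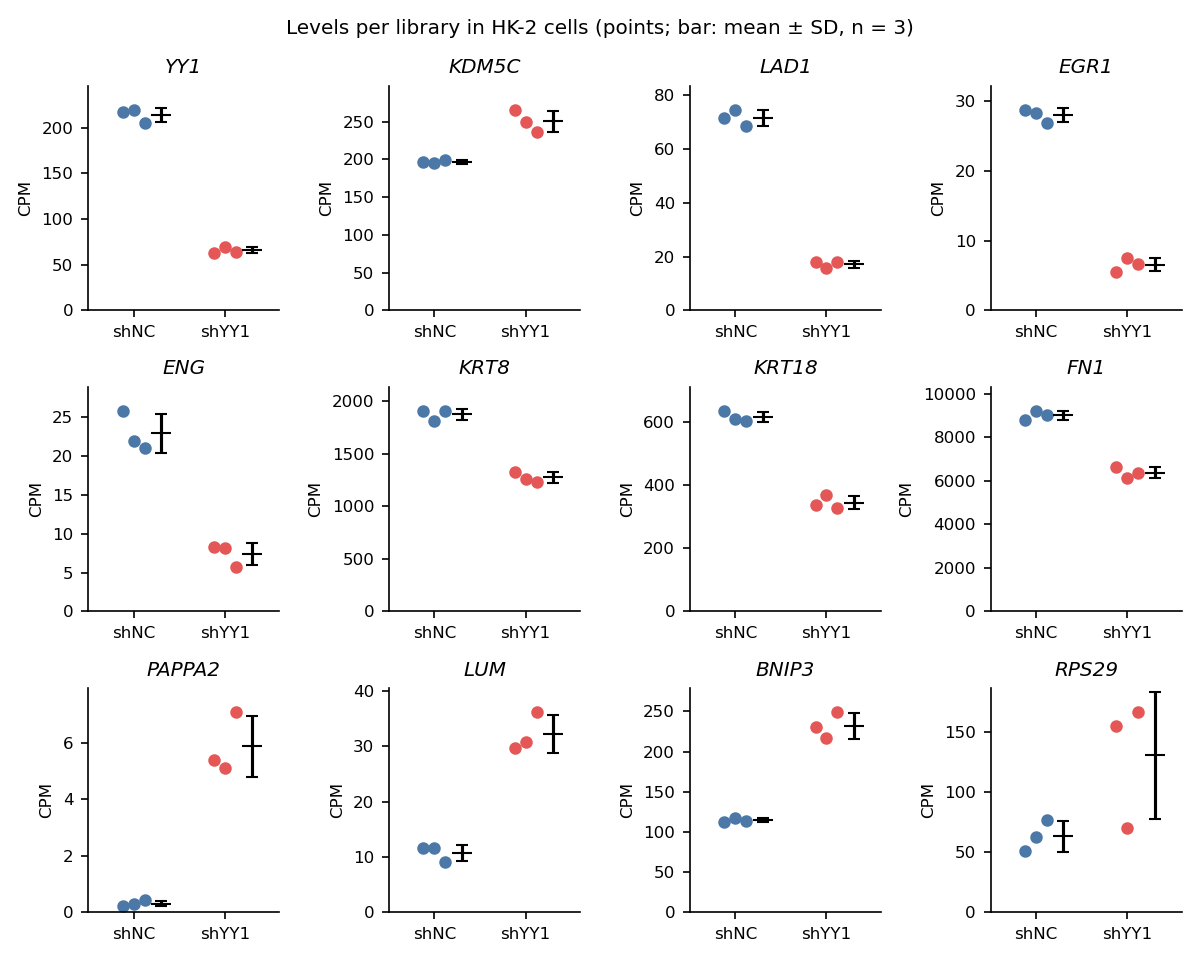
Levels in CPM (vertical axis, linear from 0) of 12 genes in the 3 shNC and 3 shYY1 HK-2 libraries, each point 1 library, with the mean and SD (n = 3) of each group beside it. YY1 falls from 217, 219 and 206 to 63.3, 69.5 and 64.4 CPM, the groups do not overlap for the other genes but RPS29, for which shYY1 replicate 2 lies below shNC replicate 3. For LAD1, EGR1, PAPPA2 and LUM absence of overlap was a condition of their choice.

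The largest gains in CPM included EEF1A1, glycolytic enzymes and genes of other roles. EEF1A1, the translation elongation factor that delivers aminoacyl-tRNA, was at 6267, 6233 and 6150 CPM in the shNC libraries and 8300, 8444 and 8672 CPM in the shYY1 libraries, or 0.45 (adjusted p = 5.97e-10). PKM (0.28) and GAPDH (0.26), both enzymes of glycolysis, PSAP, the precursor of lysosomal saposins (0.42), TMSB10, an actin monomer binder (0.74), and AKR1B1, aldose reductase (0.62), were among the 8 genes that gained most CPM. The largest losses were of FN1 and KRT8, described below, and of mitochondrial transcripts.

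Genes of the cytosolic ribosome rose. Of 79 ribosomal protein genes tested, 76 were higher and 0 lower, with a median log2 fold change of 0.51, against 14.3% higher and a median of 0.0051 over all genes. The large subunit had 45 of 46 genes higher and the small subunit 31 of 33. Their summed level was 31080, 30700 and 32630 CPM in the shNC libraries and 45080, 40440 and 47300 CPM in the shYY1 libraries. The sums did not overlap, and shYY1 replicate 2 had the smallest rise.

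The steepest members were small proteins. RPS21, of the small subunit, was at 168, 175 and 205 CPM in the shNC libraries and 355, 259.9 and 378 CPM in the shYY1 libraries, or 0.86 (adjusted p = 2.65e-07). RPL38, of the large subunit, was at 74.8, 73.4 and 99.9 CPM in the shNC libraries and 184, 107 and 182 CPM in the shYY1 libraries, or 0.93 (adjusted p = 1.47e-05). RPS29 was at 51.3, 62.5 and 76.7 CPM in the shNC libraries and 155, 70.2 and 167 CPM in the shYY1 libraries, or 1.04 (adjusted p = 0.000181). RPS21 and RPL38 did not overlap between the groups, while RPS29 of shYY1 replicate 2 lay under that of shNC replicate 3. Without shYY1 replicate 2, the list again had 76 genes higher, with a median of 0.546. Processed ribosomal protein pseudogenes, which share reads with their parent genes, moved alike, with 43 of 102 higher and 1 lower.

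The counts were smaller in the other comparisons. On the KDM5C-depleted background, without shKDM5C replicate 1, 27 of 79 were higher and 6 lower, against 22.2% higher and 21% lower over all genes, and in ACHN cells 12 were higher and 19 lower, against 24.2% and 24.5%. The difference between the cell lines was itself called for 75 of the 79, each with the higher effect in HK-2 cells, against 16.5% of all genes. The median canonical transcript of the list was 785 bases long, against 2922 over all genes, and short transcripts as a whole were slightly higher in shYY1 libraries. Among genes of at least 1 CPM, the median log2 fold change ran from 0.173 in the shortest of 10 length bins (42 to 970 bases) to -0.088 in the longest. With the trends on transcript length and GC content removed, 74 ribosomal protein genes were higher, with a median of 0.402. When all 4 HK-2 groups shared the estimate of spread, 49 were called higher with a median of 0.509, and without shKDM5C replicate 1 in that fit 76 were. The part of transcript length in the rise was not tested beyond these fits.

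Subunits of the respiratory chain and ATP synthase encoded in the nucleus also rose, by less. Of 76 genes, 43 were higher and 2 lower, with a median of 0.27. By complex, 17 of 36 genes of complex I, 1 of 4 of complex II, 6 of 9 of complex III, 9 of 12 of complex IV and 10 of 15 of ATP synthase were higher. Their sum was 5367, 5354 and 5623 CPM in the shNC libraries and 6417, 5958 and 6703 CPM in the shYY1 libraries, again without overlap and again smallest in shYY1 replicate 2.

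Individual subunits showed both directions. NDUFA1, an accessory subunit of complex I, was at 37.4, 36.4 and 43.0 CPM in the shNC libraries and 69.5, 52.6 and 80.0 CPM in the shYY1 libraries, or 0.79 (adjusted p = 4.81e-06). UQCR10, of complex III, was at 42.3, 37.0 and 38.2 CPM in the shNC libraries and 63.0, 52.1 and 65.5 CPM in the shYY1 libraries, or 0.62 (adjusted p = 4.92e-06). NDUFA5, also of complex I, was at 24.5, 25.9 and 24.3 CPM in the shNC libraries and 11.7, 15.6 and 18 CPM in the shYY1 libraries, or -0.72 (adjusted p = 9.42e-05). Thus 2 complex I genes moved in opposite directions with no overlap. The median length in this list was 784 bases, and with length and GC trends removed 34 genes were higher and 7 lower, with a median of 0.165. When all 4 HK-2 groups shared the estimate of spread, 6 were called higher and 1 lower while the median stayed at 0.272, and without shKDM5C replicate 1 in that fit 41 were higher and 3 lower. On the KDM5C-depleted background without shKDM5C replicate 1 the same list had 7 higher and 20 lower, against 22.2% and 21% over all genes.

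The 13 messenger RNAs made in the mitochondrion itself did not follow the nuclear subunits, with 5 lower and 2 higher. MT-CO1, a core subunit of complex IV, was at 13110, 13790 and 13160 CPM in the shNC libraries and 10640, 11340 and 11140 CPM in the shYY1 libraries, or -0.27 (adjusted p = 1.15e-06). MT-CYB was -0.28 and MT-ND6 -0.35, while MT-ND2 (0.26) and MT-ND3 (0.50, groups that overlapped and a call lost in DESeq2) were higher. Of 77 mitochondrial ribosomal proteins, 25 were higher and 2 lower (median 0.17). Their median canonical transcript was 1224 bases long, against 2922 over all genes. Genes of at least 1 CPM with transcripts of 972 to 1545 bases had a median of 0.084. Of 21 regulators of mitochondrial biogenesis 6 were higher and 3 lower, with TFAM, which packages mitochondrial DNA, lower (-0.35).

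The sequence that YY1 recognises was looked for in the promoters of these genes. The 8-base motif AANATGGC and its reverse complement GCCATNTT were searched on both strands of RefSeq windows from 250 bases before to 50 after each start (GRCh38.p14), with N as any base. The motif was in 8.85% of the 16314 windows of tested genes, and in 9.79% of the windows of lower, 10.9% of those of higher and 8.14% of those of uncalled genes. It was in 14.1% of the windows of ribosomal protein genes, in 36.0% of those of the respiratory chain genes and in 0 of 49 windows of matrix genes. Genes called lower, or called higher, in all 3 comparisons (HK-2, KDM5C-depleted HK-2 without shKDM5C replicate 1, and ACHN) held it in 13.8% and 13.4% of their windows. Windows of 30 bases around the motif (in capitals, on the strand of the gene, 5′ to 3′) are given for 3 genes that fell in all 3 comparisons (AP4S1, an adaptor complex subunit, -1.75 in HK-2 cells, the junction gene CGN, -1.15, and the scaffold gene KIDINS220, -1.13) and for 4 that rose in HK-2 cells (RPS27, 0.93, RPL35A, 0.81, NDUFA1 and UQCR10). AP4S1, KIDINS220 and RPL35A were chosen after their values were seen.
AP4S1, chr14:31025648-31025677, plus strand: tactaaaagccAAAATGGCtgccccgagga
CGN, chr1:151511142-151511171, plus strand: gcgacgcccccAAAATGGCctccgcgcccc
KIDINS220, chr2:8837577-8837606, minus strand: ggagagggaagAATATGGCcgccgggtgtg
RPS27, chr1:153990622-153990651, plus strand: aagaccttccgAAAATGGCagctcccttgt
RPL35A, chr3:197950190-197950219, plus strand: cttctcttaccGCCATCTTggctcctgtgg
NDUFA1, chrX:119871598-119871627, plus strand: aaagctgctctGCCATTTTagagtcctgag
UQCR10, chr22:29767385-29767414, plus strand: gactgtgaagaAACATGGCggccgcgacgt

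The motif contains ATG and can therefore coincide with a start codon, as 53.7% of the motif-bearing windows of tested genes held it after the start of transcription. Within the respiratory chain list, the 25 genes with the motif had 12 higher and 1 lower (median 0.21) and the 37 genes without it had 23 higher and 1 lower (median 0.31). Within the ribosomal list, 11 of 11 genes with the motif and 50 of 52 without it were higher. Over all tested genes with a window, 247 of 1348 genes with the motif were lower and 257 higher, and 1554 of 9901 without it were lower and 1494 higher. A match describes these letters only and does not show that YY1 was bound there.

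**Figure D3:**
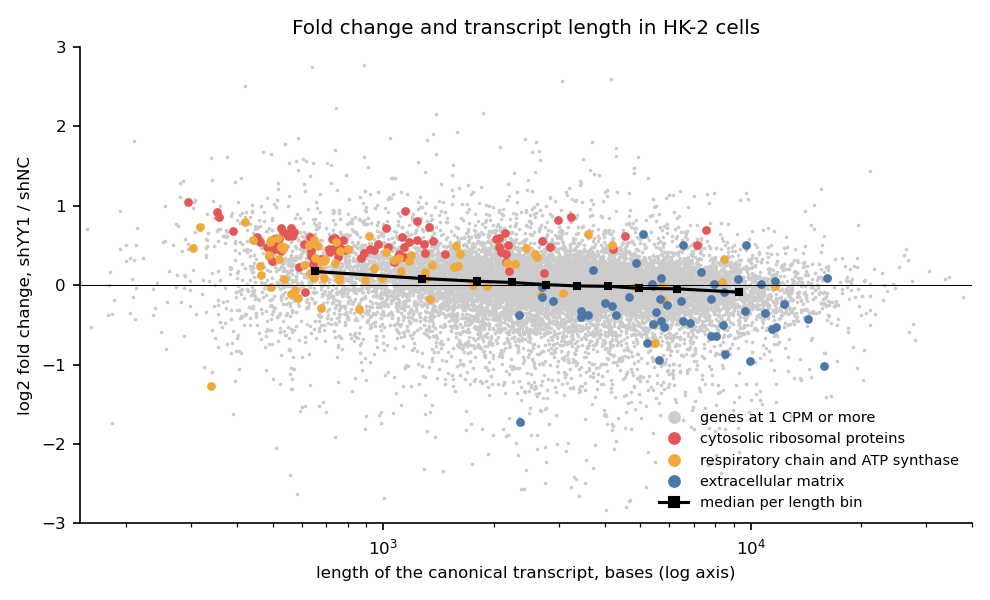
Log2 fold change of shYY1 over shNC HK-2 cells (vertical axis, limited to 3 either way) against length of the canonical transcript in bases (horizontal axis, log scale), 1 grey point for each gene of at least 1 CPM, coloured points for 3 gene lists and black squares for the median of each of 10 length bins at its median length. The squares run from 0.173 in the shortest bin to -0.088 in the longest, with the ribosomal protein genes (median 0.51) mostly above and the matrix genes (median -0.26) mostly below them. In the same bins the medians ran from 0.033 to -0.021 on the KDM5C-depleted background without shKDM5C replicate 1 and from 0.006 to -0.022 in ACHN cells.

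Genes of glycolysis and of the response to low oxygen rose in shYY1 cells. Of 43 genes, 27 were higher and 2 lower, with a median of 0.26, and leaving out any 1 library gave 26 or 27 higher. BNIP3, a mitophagy receptor induced by hypoxia, was at 113, 117 and 114 CPM in the shNC libraries and 230.0, 216 and 249 CPM in the shYY1 libraries, or 1.02 (SE 0.055, adjusted p = 9.17e-12). PDK1, the kinase that restrains pyruvate entry into the mitochondrion, was at 45.7, 44.5 and 44.1 CPM in the shNC libraries and 84.4, 88.3 and 84 CPM in the shYY1 libraries, or 0.93 (SE 0.062, adjusted p = 1.46e-10). VEGFA, the angiogenic growth factor, was at 83.0, 77.7 and 91.9 CPM in the shNC libraries and 129, 122 and 137 CPM in the shYY1 libraries, or 0.62 (adjusted p = 1.61e-07). All 3 genes had every shYY1 library above every shNC library. LDHA, which makes lactate, rose by less (0.45), as did the glucose carrier SLC2A1 (0.28), while the second glucose carrier SLC2A3 fell, from 112, 107 and 108 CPM to 69.0, 70.6 and 64.1 CPM (-0.68 (adjusted p = 1.13e-08)). On the KDM5C-depleted background with all libraries, VEGFA (1.70) and SLC2A3 (1.32) were called higher. There BNIP3 (0.34), PDK1 (0.09), SLC2A1 (0.43) and LDHA (-0.58) were not called. LDHA was at 2190, 1405 and 1327 CPM in shKDM5C and 1053, 1062 and 1176 CPM in Dsh libraries. In ACHN cells 21 of the 43 genes were lower and 10 higher, against 24.5% lower and 24.2% higher over all genes, and the effect was larger in HK-2 cells for 26 of 44 genes tested for the difference.

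Genes for amino acid supply and for charging of transfer RNA rose in part. Of 60 genes of the ATF4 and unfolded protein responses, 24 were higher and 4 lower (median 0.15). They included 14 of 31 ATF4 and amino acid genes (median 0.17) and 8 of 12 aminoacyl-tRNA synthetases, while of 17 genes of the unfolded protein response, which folds or removes misfolded proteins, 2 were higher and 1 lower (median 0.057). ATF4 itself, the transcription factor of the amino acid response, was at 286, 287 and 304 CPM in the shNC libraries and 397, 372 and 395 CPM in the shYY1 libraries, or 0.41 (adjusted p = 7.59e-07). CTH, which makes cysteine, was at 10.6, 10.1 and 11.4 CPM in the shNC libraries and 17.7, 19.9 and 19.5 CPM in the shYY1 libraries, or 0.83 (adjusted p = 8.29e-06). Both rose without overlap. SESN2, a stress-induced inhibitor of mTORC1, was higher (0.42), and the folding regulator HERPUD1 fell (-0.53). On the KDM5C-depleted background without shKDM5C replicate 1, 50 of the 60 genes were higher and 4 lower, against 22.2% and 21% over all genes.

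Redox, p53 and MYC genes rose in part. Of 32 targets of NRF2 and genes of glutathione metabolism, 12 were higher and 4 lower. TXN (thioredoxin) was at 141, 142 and 146 CPM in the shNC libraries and 227, 235 and 269.8 CPM in the shYY1 libraries, or 0.77 (adjusted p = 1.55e-09), and its reductase TXNRD1 rose as well (0.59), while NQO1, a quinone reductase also under NRF2, fell (-0.37). Of 30 genes of the p53 pathway, 12 were higher and 3 lower, and GADD45A, a DNA damage response gene, was at 20.9, 18.6 and 16.5 CPM in the shNC libraries and 32.1, 33.7 and 37.6 CPM in the shYY1 libraries, or 0.88 (adjusted p = 5.87e-07). Of 33 genes of the MYC network, 13 were higher and 3 lower, among them NPM1 (0.29) and FBL (0.41), both of the nucleolus. Of 17 genes of iron handling, 9 were higher and 2 lower, with the ferritin heavy chain FTH1 at 0.30 and the transferrin receptor TFRC at 0.29.

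Genes of the extracellular matrix fell. Of 51 genes, 30 were lower and 5 higher, with a median of -0.26, against 14.7% lower over all genes. Among them were 11 of 19 collagens, 8 of 15 laminin and basement membrane genes and 11 of 17 matricellular genes. FN1 (fibronectin) was at 8786, 9197 and 9007 CPM in the shNC libraries and 6624, 6119 and 6358 CPM in the shYY1 libraries, or -0.50 (SE 0.035, adjusted p = 3.72e-10). FRAS1, a basement membrane protein of the developing kidney, was at 197, 197 and 189 CPM in the shNC libraries and 102, 97.9 and 87.8 CPM in the shYY1 libraries, or -1.02 (SE 0.057, adjusted p = 1.57e-11). TNC (tenascin C) was at 72.3, 74.0 and 69.9 CPM in the shNC libraries and 43.7, 39.7 and 35.4 CPM in the shYY1 libraries, or -0.86 (adjusted p = 9.18e-09). In all 3 genes the highest shYY1 library stood below the lowest shNC library.

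Smaller falls were measured for the basement membrane collagen COL4A1 (-0.45), thrombospondin THBS1 (-0.65) and SPARC (-0.33), and the proteoglycan BGN (biglycan) fell more (-1.72). Against this trend LOX, the enzyme that crosslinks collagen, was at 51.8, 47.2 and 41.1 CPM in the shNC libraries and 66.8, 75.5 and 77.2 CPM in the shYY1 libraries, or 0.65 (adjusted p = 1.42e-06), and COL4A5 rose by 0.50. The matrix proteases went both ways, with 9 of 28 lower and 7 higher. MMP7 (matrilysin), a protease made by injured tubule cells, was at 65.1, 65.1 and 65.1 CPM in the shNC libraries and 22.3, 23.0 and 23.3 CPM in the shYY1 libraries, or -1.51 (adjusted p = 1.15e-12), and the membrane protease ADAM12 was at 10.2, 14.4 and 11.4 CPM in the shNC libraries and 26.7, 25.9 and 27.8 CPM in the shYY1 libraries, or 1.16 (adjusted p = 1.14e-07). The median canonical transcript of the matrix list was 5914 bases long, and with length and GC trends removed 23 genes were lower and 10 higher. On the KDM5C-depleted background without shKDM5C replicate 1 the list went the other way, with 25 of 51 higher and 13 lower, against 22.2% and 21% over all genes, and in ACHN cells 23 of 50 were higher and 21 lower, against 24.2% and 24.5%.

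Epithelial adhesion genes fell with the matrix. Of 29 genes of epithelial junctions, 17 were lower and 2 higher (median -0.30). CGN (cingulin), a tight junction scaffold, was at 26.3, 23.9 and 23.8 CPM in the shNC libraries and 11.2, 11.1 and 10.9 CPM in the shYY1 libraries, or -1.15 (SE 0.11, adjusted p = 2.71e-08). CLDN2, the cation-conducting claudin of the proximal tubule, was at 95.9, 91.3 and 94.5 CPM in the shNC libraries and 50.2, 48.5 and 40.7 CPM in the shYY1 libraries, or -1.01 (adjusted p = 4.15e-10). CLDN4, a claudin of the collecting duct, was at 38.5, 36.3 and 38.3 CPM in the shNC libraries and 54.5, 48.6 and 55.2 CPM in the shYY1 libraries, or 0.49 (adjusted p = 2.41e-05). The claudins thus moved in opposite directions. Among 9 mesenchymal adhesion and transition factors 2 were lower and 2 higher, with N-cadherin CDH2 (0.30) and the repressor SNAI2 (1.28) higher. The 9 summed to 9047, 9461 and 9272 CPM in the shNC libraries and 6929, 6429 and 6670 CPM in the shYY1 libraries. Most of that sum was FN1 (fibronectin), which was lower.

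The keratin pair of simple epithelium fell, while 2 of 10 keratins rose. KRT8 was at 1904, 1815 and 1905 CPM in the shNC libraries and 1330, 1261 and 1234 CPM in the shYY1 libraries, or -0.56 (adjusted p = 8.14e-10). Its partner KRT18 was at 635, 609 and 604 CPM in the shNC libraries and 337, 369 and 329 CPM in the shYY1 libraries, or -0.84 (adjusted p = 1.97e-11). KRT19 was at 45.2, 46.2 and 43.0 CPM in the shNC libraries and 59.3, 55.5 and 61.6 CPM in the shYY1 libraries, or 0.39 (adjusted p = 0.000128). Of 15 integrins 8 were lower and 2 higher, a count that stayed at 8 lower with any library left out. The laminin receptor subunits ITGA6 (34.7, 37.1 and 36.4 CPM to 14.6, 14.5 and 14.5 CPM, -1.31 (adjusted p = 3.83e-10)) and ITGB4 (-0.52) and the collagen receptor subunit ITGA2 (-1.13) fell, while ITGB1, the common beta subunit, rose slightly (0.20).

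**Figure D4:**
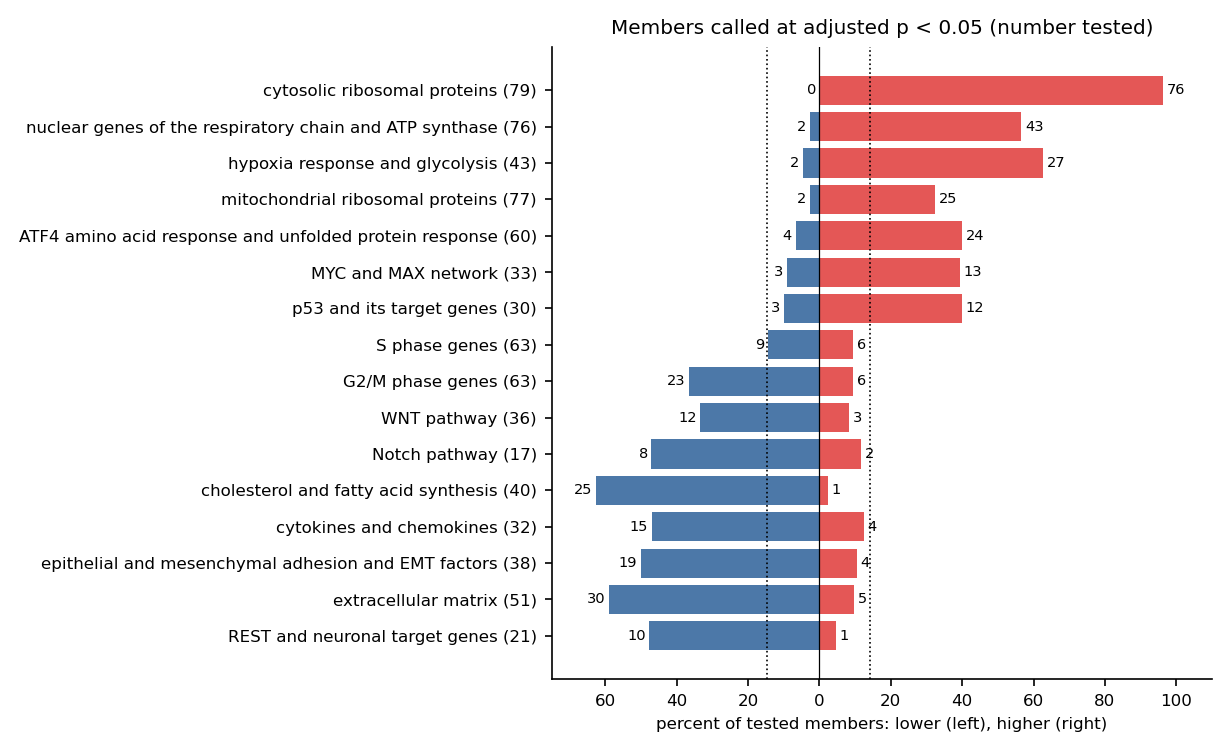
Percent of tested members called lower (bars to the left) and higher (bars to the right) in shYY1 HK-2 cells for 16 gene lists, with dotted lines at the 14.7% lower and 14.3% higher over all genes tested. Cytosolic ribosomal proteins (76 of 79 higher) and hypoxia and glycolysis genes (27 of 43 higher) lie furthest to the right, and cholesterol and fatty acid synthesis (25 of 40 lower) and extracellular matrix (30 of 51 lower) furthest to the left.

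Genes of cholesterol and fatty acid synthesis fell by small steps. Of 40 genes, 25 were lower and 1 higher (median -0.21), including 17 of 25 genes of cholesterol synthesis and uptake with 0 higher. HMGCS1, which makes HMG-CoA, was at 180.4, 189 and 178 CPM in the shNC libraries and 131, 129.9 and 137 CPM in the shYY1 libraries, or -0.46 (adjusted p = 4.01e-07). Its groups did not overlap. Among lipid droplet and oxidation genes 6 of 30 were lower and 5 higher, and PLIN2, a coat protein of lipid droplets, was at 58.1, 56.6 and 56.5 CPM in the shNC libraries and 95.2, 92.2 and 96.0 CPM in the shYY1 libraries, or 0.73 (adjusted p = 3.70e-09). In ACHN cells 33 of the 40 synthesis genes were lower, against 24.5% over all genes, whereas on the KDM5C-depleted background without shKDM5C replicate 1 7 were lower and 18 higher, against 21% and 22.2%.

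Receptors and signal transducers of cytokines were mostly lower, while cytokines and antigen presentation genes moved in both directions. Of 32 cytokines, chemokines and their receptors, 15 were lower and 4 higher (median -0.26), including 9 of 12 receptors and signal transducers. Of 9 chemokines 4 were lower and 1 higher. The 11 cytokines had 2 lower and 2 higher (median 0.046). CXCL16, a membrane-bound chemokine, was at 5.08, 4.79 and 4.49 CPM in the shNC libraries and 0.973, 0.732 and 1.54 CPM in the shYY1 libraries, or -2.13 (adjusted p = 5.26e-06). CCL2, which draws monocytes, was at 5.93, 6.79 and 9.24 CPM in the shNC libraries and 2.13, 1.52 and 2.19 CPM in the shYY1 libraries, or -1.91 (adjusted p = 1.19e-06). CX3CL1 (fractalkine) was at 45.8, 48.8 and 51.5 CPM in the shNC libraries and 22.7, 19 and 18.6 CPM in the shYY1 libraries, or -1.28 (adjusted p = 4.14e-10). All 3 chemokines were lower in each shYY1 library than in any shNC library. The neutrophil chemokine CXCL5 (0.66) and the cytokine LIF (0.29) rose.

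Of 21 genes of MHC class I presentation, 8 were lower and 5 higher, the latter including PDIA3, PSME1, CALR and PSME2. The summed level of the list was 4510, 4417 and 4533 CPM in shNC and 4694, 4543 and 4765 CPM in shYY1 libraries. HLA-B, a presenting heavy chain, was at 128, 126 and 135 CPM in the shNC libraries and 55.1, 56.4 and 66.4 CPM in the shYY1 libraries, or -1.13 (adjusted p = 2.36e-11), and the peptide transporter TAP1 was at 41.9, 34.5 and 36.0 CPM in the shNC libraries and 19.9, 20.9 and 21.9 CPM in the shYY1 libraries, or -0.84 (adjusted p = 4.15e-07). Of 49 sensors and interferon-stimulated genes 9 were lower and 3 higher, against 14.7% and 14.3% over all genes. The antiviral membrane proteins IFITM1 (-1.52) and IFITM3 (-1.52) were lower, while USP18, ISG15 and IFI35 were higher. The 33 interferon-stimulated genes had 5 lower and 3 higher (median -0.021). The 5 NF-kB subunits had 0 called in either direction, and of 21 feedback and target genes 6 were lower, among them the apoptosis inhibitor BIRC3 (-0.65), and 3 higher.

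Signalling pathways moved in both directions. Of 44 genes of the TGF-beta family, 15 were lower and 11 higher, including 6 of 11 receptors lower and 1 higher. The co-receptor ENG (endoglin) was at 25.8, 22.0 and 21.1 CPM in the shNC libraries and 8.27, 8.18 and 5.74 CPM in the shYY1 libraries, or -1.63 (adjusted p = 7.83e-09), and the BMP antagonist GREM1 was at 49.2, 47.0 and 49.1 CPM in the shNC libraries and 72.1, 80.7 and 92.7 CPM in the shYY1 libraries, or 0.76 (adjusted p = 1.08e-07). Of 36 WNT pathway genes 12 were lower and 3 higher, and of 17 Notch pathway genes 8 were lower and 2 higher, with the receptor NOTCH3 (-0.82) and the pathway regulators DTX4 (-1.12) and NRARP (-0.77) lower. Within the EGF receptor family LRIG1, which promotes degradation of the receptor, was at 13.1, 12.2 and 13.8 CPM in the shNC libraries and 5.05, 6.53 and 4.50 CPM in the shYY1 libraries, or -1.28 (adjusted p = 1.15e-06). The ligand TGFA rose (0.84), as did PHLDA1, a gene induced by growth factors (0.71), while the list as a whole had 7 lower and 6 higher of 23. Of 28 AP-1 and immediate early genes 8 were lower and 4 higher, and FOSL1, an AP-1 subunit, rose (0.71). Without shNC replicate 2 the lower count of that list was 4.

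Markers of kidney identity and injury changed without a common direction. PAX2, a transcription factor of kidney development, was at 9.94, 8.21 and 11.7 CPM in the shNC libraries and 2.31, 3.29 and 2.84 CPM in the shYY1 libraries, or -1.82 (adjusted p = 1.82e-07). Of 19 proximal tubule genes tested 7 were lower and 2 higher, with the efflux pump ABCB1 (-0.98), the vitamin D hydroxylase CYP24A1 (-0.96) and GGT1 (-0.44) lower and the brush border peptidase MME higher (0.74). Of 29 injury genes 13 were lower and 8 higher. CLU (clusterin) fell from 118, 118 and 118 CPM to 69.6, 59.9 and 53.9 CPM (-0.95 (adjusted p = 1.10e-09)), SOX9, a factor of regenerating tubule (-0.77), and HAVCR1 (KIM-1, -0.25) fell as well, and the secreted injury marker LCN2 (0.45) and the cytokine IL18 (0.60) rose.

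Of 21 genes on the list of the repressor REST and its known neuronal targets, 10 were called lower and 1 higher (median -0.52). VGF, a secreted neuropeptide precursor, was at 31.1, 24.2 and 26.8 CPM in the shNC libraries and 16.6, 16.2 and 14.7 CPM in the shYY1 libraries, or -0.79 (adjusted p = 7.28e-06), without overlap. Of 15 genes of the IGF axis 3 were lower and 6 higher. PAPPA, the paralog of PAPPA2, moved opposite to it, at 81.5, 90.3 and 88.0 CPM in the shNC libraries and 53.6, 50.9 and 46.1 CPM in the shYY1 libraries, or -0.79 (adjusted p = 1.11e-08), and IGFBP4, the substrate of PAPPA, fell (-1.12).

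Changes of cell cycle genes were small in size. Of 63 genes of G2 and mitosis, 23 were lower and 6 higher, but the median was -0.063 and without shNC replicate 3 the lower count was 15. CDC25B, a phosphatase that starts mitosis, was at 309, 289 and 311 CPM in the shNC libraries and 216, 222 and 206 CPM in the shYY1 libraries, or -0.50 (adjusted p = 9.59e-08), and CCNA2 (cyclin A) at 125, 125 and 122 CPM in the shNC libraries and 96.7, 104 and 94.3 CPM in the shYY1 libraries, or -0.34 (adjusted p = 6.92e-05). MKI67, a marker of cycling cells, fell (-0.27), whereas CDK1 (0.033, adjusted p = 0.73), TOP2A (-0.11, adjusted p = 0.0738) and CCNB1 (0.09, adjusted p = 0.17) were not called. Of 63 S phase genes 9 were lower and 6 higher, against 14.7% and 14.3% over all genes. Without shNC replicate 1 or shNC replicate 2 the lower count was 5 or 4. CCND1 (cyclin D1) was at 88.9, 104 and 90.2 CPM in the shNC libraries and 128, 134 and 134 CPM in the shYY1 libraries, or 0.49 (adjusted p = 2.38e-06), and its kinase CDK4 rose (0.29). When all 4 HK-2 groups shared the estimate of spread, 1 G2 and mitosis gene was lower.

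The study names 6 genes of adhesion, chromosome structure and the cell cycle in double-knockdown cells, a list chosen on libraries of this series and so no independent evidence of direction. With YY1 depleted alone, JAM3, a junction adhesion molecule (-0.63), KNTC1, of the kinetochore (-0.31), FOXM1, a mitotic transcription factor (-0.19), and SMC4, of condensin (-0.14), were lower. The call of SMC4 was lost without any 1 of the shNC libraries or shYY1 replicate 1. SMC2 was at 0.022 (adjusted p = 0.803) and LMNB1 at -0.11 (adjusted p = 0.0727), neither called.

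Of 47 genes for the YY1 paralogs and for partners of YY1, 13 were higher and 4, YY1 included, lower. Of 12 genes of the INO80 complex 1 was higher and 0 lower, and of 25 Polycomb genes 8 were higher and 2 lower. PHF19, which brings Polycomb to marked chromatin, was at 146, 133 and 142 CPM in the shNC libraries and 74.0, 80.2 and 75.8 CPM in the shYY1 libraries, or -0.87 (SE 0.057, adjusted p = 1.39e-10), and the methyltransferase EZH2 was at 84.8, 82.0 and 87.0 CPM in the shNC libraries and 95.3, 97.2 and 99.5 CPM in the shYY1 libraries, or 0.20 (adjusted p = 0.0085). HDAC1, a histone deacetylase that binds YY1, rose (0.38). Among 15 members of H3K4 methyltransferase complexes 5 were lower and 1 higher, with the catalytic subunits KMT2D (-0.35) and KMT2A (-0.21) lower. Of 15 histone genes 2 were lower and 5 higher, and the histone variant MACROH2A2 was at 54.0, 58.0 and 54.4 CPM in the shNC libraries and 23.4, 22.9 and 22.2 CPM in the shYY1 libraries, or -1.28 (adjusted p = 2.36e-11). Of 32 HOX genes 4 were lower and 7 higher, 4 of them HOXB genes.

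Knockdown of YY1 beside that of KDM5C gave a second set of HK-2 libraries, which shares no library with the first. As the Dsh cells were made from YY1-depleted cells, they may carry the same YY1 hairpin as the shYY1 cells. For genes that recur here, an effect of that hairpin and an effect of YY1 loss cannot be told apart. The Dsh cells also carry a further, GFP-marked hairpin. Against shKDM5C, Dsh cells had 896 of 16042 genes lower (5.59%) and 1005 higher (6.26%). The library shKDM5C replicate 1 stood apart, with 11.83% mitochondrial counts against 5.133 and 5.278% in the other shKDM5C libraries, and without it 3501 of 16633 genes were lower (21%) and 3696 higher (22.2%). In the comparison without that library, 1120 of the 2342 lower genes of shYY1 cells that were tested were lower (47.8%) and 321 higher (13.7%), where over all genes tested in both the shares were 22.0 and 22.4%. Of 2293 higher genes 998 were higher (43.5%) and 316 lower (13.8%). For the steep falls, 75 of 135 were lower again (55.6%) and 6 higher, and for the steep rises 20 of 42 were higher (47.6%) and 1 lower. With shKDM5C replicate 1 included, 418 of 2324 lower genes (18%) and 325 of 2289 higher genes (14.2%) kept their direction with a call.

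In ACHN cells YY1 knockdown moved more genes, with 4017 of 16370 lower (24.5%) and 3955 higher (24.2%). Of the 2219 lower genes of HK-2 cells tested there, 788 were lower (35.5%) and 635 higher (28.6%), against 25.1 and 25.2% over all genes tested in both. Of 2210 higher genes 748 were higher (33.8%) and 548 lower (24.8%). Across all 3 comparisons, which share no library, and with shKDM5C replicate 1 left out, 403 of 2207 genes were lower and 375 of 2204 higher each time. Over all genes tested in both, 22.0% were lower and 22.4% higher on the KDM5C-depleted background, and 25.1% and 25.2% in ACHN cells. How far the counts exceed an overlap of unrelated calls was not tested. The genes lower each time included DMKN (-2.12 in HK-2, -1.45 on the KDM5C-depleted background and -2.44 in ACHN cells), LAD1 (-2.06, -3.04 and -2.31 in the same order), LRIG1 (-1.28, -1.42 and -1.37) and MACROH2A2 (-1.28, -1.65 and -3.43). The genes higher each time included ADAM12 (1.16, 2.22 and 0.54), GADD45A (0.88, 2.44 and 0.17) and TXN (0.77, 0.27 and 0.24). With shKDM5C replicate 1 included, TXN was not called on the KDM5C-depleted background (0.13, adjusted p = 0.607).

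**Figure D5:**
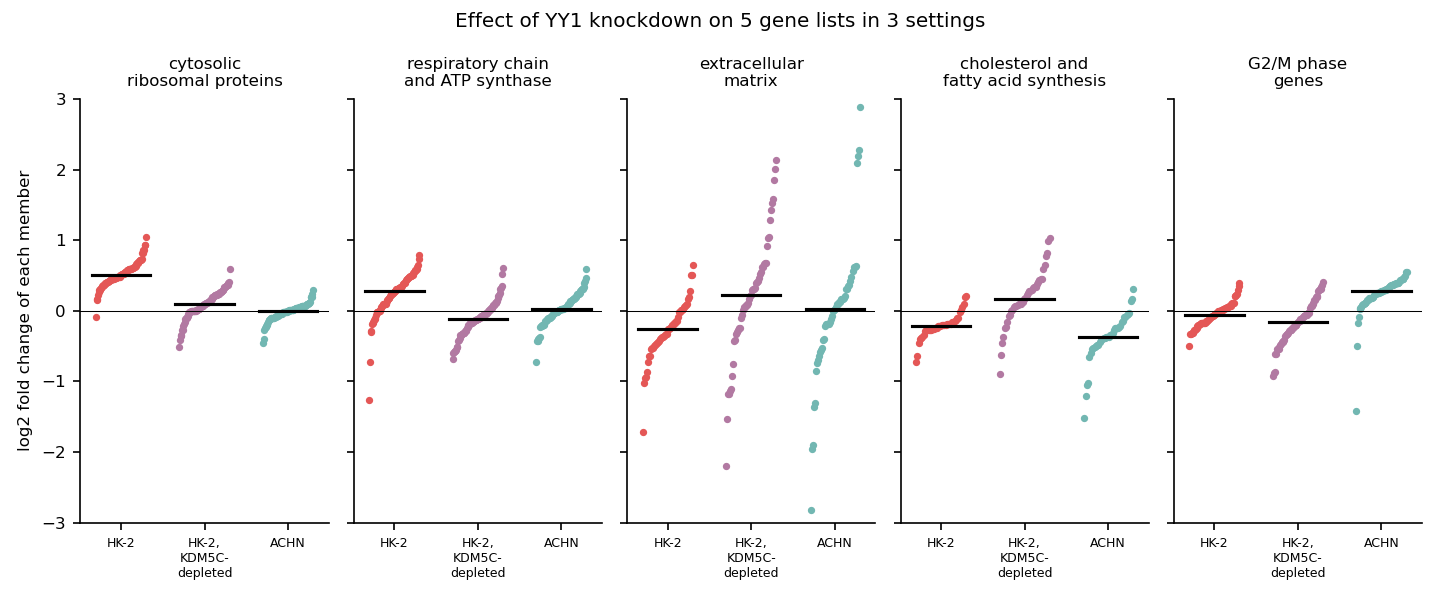
Log2 fold change of YY1 knockdown (vertical axis, limited to 3 either way, with 2 points outside) for the members of 5 gene lists in HK-2 cells, in KDM5C-depleted HK-2 cells without shKDM5C replicate 1 and in ACHN cells, 1 point for each gene in order of size and a black bar for the median. The ribosomal protein median is 0.51 in HK-2 cells and near 0 in ACHN cells, the matrix median is -0.26 in HK-2 cells and 0.22 in KDM5C-depleted cells, and the G2/M median is -0.063 in HK-2 and 0.28 in ACHN cells.

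The difference of the effects between the cell lines was tested in 1 fit over 12 libraries. It was called for 2991 of 18010 genes as lower in HK-2 cells (16.6%) and for 2978 as higher (16.5%). ENG fell in HK-2 cells and was 1.85 (adjusted p = 6.23e-13) in ACHN cells, a difference of -3.50 (adjusted p = 6.54e-14). PAX2 was 1.55 (adjusted p = 3.47e-22) in ACHN cells, a difference of -3.39 (adjusted p = 1.34e-15). CCL2 was 2.75 (adjusted p = 2.88e-27) there, a difference of -4.67 (adjusted p = 4.11e-17). For each of these the ACHN groups moved opposite to the HK-2 groups, as they did for BGN (2.88), PAPPA (2.03) and the calcium channel CACNA1H (-1.79 in HK-2 and 1.99 in ACHN cells).

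At the level of lists, the ACHN counts are to be read against 24.2% higher and 24.5% lower over all genes. The difference was called as lower in HK-2 cells for 16.6% of all genes. G2 and mitosis genes had 55 of 63 higher and 3 lower in ACHN cells, with a difference called as lower in HK-2 cells for 48 of 63. Antigen presentation genes were higher in ACHN cells in 16 of 21 cases, and 13 of 21 had a lower effect in HK-2 cells. Genes of cytokines, chemokines and their receptors were higher in 17 of 33 cases in ACHN cells, and 19 of 34 had a lower effect in HK-2 cells. Among the genes with the largest differences, NRK, a protein kinase gene, was at 74.97 ± 3.612 CPM in shNC and 55.65 ± 1.883 CPM in shYY1 HK-2 cells (SD, n = 3), while it was nearly lost in shYY1 ACHN cells (67.6, 71.4 and 70.5 CPM in the shNC and 0.0533, 0.162 and 0.168 CPM in the shYY1 libraries of ACHN cells).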

How the data were processed

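Total RNA was extracted, made into libraries with the NEBNext Ultra kit and sequenced as paired reads. Per the labels, the authors aligned reads to hg38 with HISAT2 2.0.5 and counted them per gene with featureCounts 1.5.0-p3, while the file headers name featureCounts 2.0.1 with Ensembl 84 genes and no strand setting. The deposited values are raw counts of 60675 genes, of which 19466 without a symbol hold 0.597% of the counts. Because strand was not used, reads of a gene and of an overlapping antisense gene cannot be told apart.

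Counts were filtered (edgeR 4.0.16 filterByExpr, minimum count 10), scaled by TMM and tested with edgeR's quasi-likelihood test in R 4.3.3. P-values were adjusted by Benjamini-Hochberg over every gene that passed the filter. The fit held the 6 shNC and shYY1 HK-2 libraries without covariates, and 18 of 24 libraries were used in all. Scripts were tested on simulated data. Depth of 16395808 to 18755684 counts per library gives the precision shown by the spread between replicates.

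The members and the 54 gene lists were chosen with earlier results of these data known. Named genes were the 12 steepest falls and rises past a log2 fold change of 1.5 with at least 5 CPM, a symbol and no overlap, the 8 largest CPM changes each way, up to 4 called members of each list each way with at least 1 CPM, anchor genes of the lists, and the 5 largest differences between cell lines each way. A few genes that this rule names are not reported here. Alternatives were DESeq2 1.42.0, other scalings and filters, all HK-2 groups in the fit, a replicate block, length and GC trends, and each library left out in turn. Canonical transcript lengths were known for 98.8% of genes.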

Additional observations from a re-analysis of the deposited data

Results flagged for a closer look

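Each result here stands out because the effect of YY1 knockdown in HK-2 cells differed from that in ACHN cells when the difference itself was tested in 1 fit over 12 libraries (edgeR quasi-likelihood test, Benjamini-Hochberg adjustment). Over all genes the difference was called lower in HK-2 cells for 16.6% and higher for 16.5%.

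Lists in which many members had a lower effect in HK-2 cells were the genes of G2 and mitosis (48 of 63), p53 and its targets (19 of 31), cytokines and chemokines (19 of 34), NF-kB subunits and feedback genes (15 of 26), tubule injury markers (15 of 29), nuclear lamina and condensin (14 of 27), MHC class I presentation (13 of 21), the Notch pathway (11 of 19) and integrins (9 of 18). Lists in which most members had a higher effect in HK-2 cells were the cytosolic ribosomal proteins (75 of 79) and the hypoxia response and glycolysis genes (26 of 44). Genes that drive mitosis were thus mostly higher in shYY1 ACHN cells, with 55 of 63 called, and more often lower than higher in shYY1 HK-2 cells, with 23 of 63 called lower and 6 higher.

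Among single genes, RAP1GAP2, the RAP1 inhibitor, had a HK-2 log2 fold change below that of ACHN cells by -4.26 (adjusted p = 5.25e-12). KRT8, a keratin of simple epithelium, differed by -0.90 (adjusted p = 5.33e-15). The effect was higher in HK-2 cells for the translation factor EEF1A1 by 0.54 (adjusted p = 5.41e-12), for the actin-binding TMSB10 by 1.00 (adjusted p = 6.21e-10) and for IGFN1 by 0.89 (adjusted p = 1.51e-09). The glycolytic enzymes PKM and GAPDH differed in the same direction, by 0.53 (adjusted p = 1.46e-11) and 0.31 (adjusted p = 1.27e-06). Transcript length and the fit of the libraries moved with the ribosomal result as given beside it, and their part in these differences was not tested.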

How the results depend on the processing

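Counts of called genes in shYY1 HK-2 cells changed most with the libraries that shared the estimate of spread. With all 4 HK-2 groups in the fit, 557 genes were lower and 370 higher, with 31 higher past the fold threshold, and 299 of 478 named genes lost their call. With shKDM5C replicate 1 left out of that fit, 2531 were lower and 78 higher past the fold threshold. Scaling by total counts gave 2829 lower and 1886 higher, against 2366 and 2305, and shifted the median of all genes to -0.032. DESeq2 gave 2191 lower and 2113 higher. With 1 library left out, 1907 to 2274 genes were lower and 1687 to 2186 higher, 154 to 203 lower and 36 to 70 higher past the fold threshold, and between 37 and 58 named genes lost their call. Without the trends on canonical transcript length and GC content, FASN (0.065), H2AZ1 (-0.001) and HSPE1 (-0.016) turned sign, and 30 named genes lost their call. That fit and the one without shKDM5C replicate 1 were chosen after seeing the data. The cause of these changes was not tested.

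The difference between the cell lines had 2680 to 3029 genes lower and 2631 to 2982 higher with 1 library left out. On the KDM5C-depleted background DESeq2 gave 1539 lower and 1585 higher, and leaving out 1 library gave 143 to 3501 lower and 240 to 3696 higher, the highest counts being those without shKDM5C replicate 1.

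Same-numbered shNC and shYY1 libraries did not deviate together (correlations of 0.0055, 0.0133 and 0.011), so the numbers were not taken as pairs. With a replicate block 2517 genes were lower and 2480 higher in HK-2 cells, 3056 and 3032 for the difference between the lines, and 324 and 473 on the KDM5C-depleted background. Each HK-2 library correlated best with its own number. At these depths, genes under about 1 CPM allow only coarse folds.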

Other observations

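The counts of further gene groups in shYY1 HK-2 cells are to be read against 14.7% lower and 14.3% higher over all genes, and several lay near or under those shares. Of 26 semaphorins, plexins and neuropilins, the guidance cues and receptors of axons and vessels, 9 were lower and 4 higher. The receptor PLXND1 was at 437, 390.4 and 398 CPM in the shNC libraries and 265, 244 and 227 CPM in the shYY1 libraries, or -0.73 (adjusted p = 1.77e-09). The co-receptor NRP2 was at 44.6, 48.8 and 53 CPM in the shNC libraries and 76.7, 73.5 and 73.6 CPM in the shYY1 libraries, or 0.61 (adjusted p = 4.87e-07), so these receptors moved in opposite directions without overlap. Of 24 MET, FGF and related receptors and ligands 4 were lower and 8 higher, with the receptors FGFR3 (-0.68), FGFR2 (-0.54) and FGFR4 (-0.30) lower and the ligands GAS6 (0.65) and KITLG (0.52) higher. Of 32 YAP, TEAD and target genes 6 were lower and 8 higher, with ANKRD1 (0.61) higher and CRIM1 (-0.36) lower. Of 21 heat shock genes 6 were lower and 3 higher. The inducible chaperones HSPA1A (-0.44) and HSPA1B (-0.45), which are near-identical copies and share reads, fell, and their regulator HSF1 rose (0.33).

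Of 30 homologous recombination and Fanconi genes 7 were lower and 2 higher. FANCE, a core subunit of the Fanconi complex, was at 17.7, 18.2 and 16.4 CPM in the shNC libraries and 8.76, 7.93 and 9.11 CPM in the shYY1 libraries, or -1.02 (adjusted p = 1.16e-06), and BRCA2 was at 51.4, 54.5 and 48.0 CPM in the shNC libraries and 32.8, 43.4 and 38.3 CPM in the shYY1 libraries, or -0.42 (adjusted p = 0.000657), both without overlap. Of 36 lysosome and autophagy genes 2 were lower and 6 higher, with the autophagosome protein MAP1LC3B higher (0.31). Of 27 nuclear lamina and condensin genes 7 were lower and 3 higher, but without shNC replicate 1 the lower count was 3, and the nuclear envelope giants SYNE1 (-0.48) and SYNE2 (-0.36) were lower. Of 19 ion channel and calcium genes 7 were lower and 3 higher, with 3 lower when shYY1 replicate 3 was left out. CACNA1H, a calcium channel, was at 34.6, 32.3 and 31.7 CPM in the shNC libraries and 9.92, 8.48 and 10.00 CPM in the shYY1 libraries, or -1.79 (adjusted p = 2.36e-11), while the calcium release channels ITPR1 (0.59) and ITPR2 (0.48) rose.

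Of 24 caspase and death receptor pathway genes 6 were lower and 3 higher (3 lower without shNC replicate 3), and of 17 BCL2 family genes 2 were lower and 4 higher (2 higher without shNC replicate 1 or 2). Of 23 DNA methylation and histone acetylation enzymes 5 were lower and 3 higher, of 22 imprinted genes 3 and 1, of 11 clustered protocadherins 2 and 0, of 22 G1 cyclins, kinases and inhibitors 4 and 5, and of 19 kidney lineage factors 4 and 2. Of 13 markers of other kidney and stromal cells 5 were lower and 2 higher, with 1 to 4 lower when 1 library was left out.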
